A study of Mus musculus with 14 samples.

Results

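Hematopoietic stem cells (HSC) from 12-mo-old mice with 1 intact copy of the p53 gene (p53+/-) were compared with HSC from wild-type mice of the same age. The comparison used the arrays titled p53 het A and B against the wild-type arrays A and B at 12 mo, so 4 of the 14 arrays of the series. Each array held RNA from an independent pool of HSC, sorted from 2 to 5 mice as side population cells that carried c-Kit and Sca-1 but no lineage marker. The RNA went through a pair of amplification rounds before hybridization to the MOE430A mouse array. The wild-type mice were C57Bl/6 animals of the CD45.1 type, whereas the p53+/- mice had been back-crossed onto C57Bl/6, so genotype cannot be told apart from strain background or from whatever differed between the preparations. The 12-mo age stands in the sample titles; the age field of the labels reads 2 mo for every sample. Of the other HSC arrays, 6 came from wild-type mice of 2, 6 and 21 mo (2 arrays each) and 2 came from 12-mo-old p53+/m mice, which carry a truncated p53 allele with raised p53 activity.

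p53 is a transcription factor that is kept at a low level by Mdm2 and is stabilized when DNA is damaged or the cell is stressed. It then switches on genes that hold the cell cycle, such as Cdkn1a, genes that drive apoptosis, such as Bbc3 and Pmaip1, and genes that feed back on p53 itself, such as Mdm2 and Ccng1. In HSC, p53 is known for keeping the cells out of cycle. A p53+/- cell has one intact allele, so its p53 is reduced and not absent. No probe set was paired with the p53 gene alone in the probe annotation used, so the genotype could not be checked on the targeted transcript. Values below are log2 GC-RMA signals, on which a difference of 1 is 2-fold, and levels are compared within a probe set and not between probe sets. Signals below 5 are low, and where one group reads there the size of a difference is not well measured.

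The wild-type arrays at 12 mo differed widely from each other. Between wild-type A and B, 3778 of 22626 probe sets (16.7%) differed at least 2-fold, compared with 1095 (4.84%) between the p53+/- arrays. The leading principal component over the 12 HSC arrays (42.1% of the variance) separated the 2-mo wild-type arrays (-53.2 and -54.6) from the 21-mo ones (67.4 and 64.8). On it, wild-type A at 12 mo lay at 56.4 and wild-type B at -42.9. The p53+/- arrays lay between them, at 5.66 and 21.6. On the second component (15.1% of the variance), the p53+/- arrays were at -28.0 and -25.6 and the p53+/m arrays at -42.4 and -43.4, whereas all 8 wild-type HSC arrays lay between 7.94 and 24.1. Control probes also differed between wild-type A and B, and the p53+/- arrays did not lie between them on every control. The 18S rRNA control read 4.66 on wild-type A, 9.68 on wild-type B, and 8.92 and 7.96 on the p53+/- arrays. The difference between the 3′ and 5′ beta-actin controls, which grows when RNA is shortened, was 3.34 on wild-type A and 6.27 on wild-type B but 2.73 and 3.07 on the p53+/- arrays. The part of RNA quality in the differences below was not tested.

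**Figure D1:**
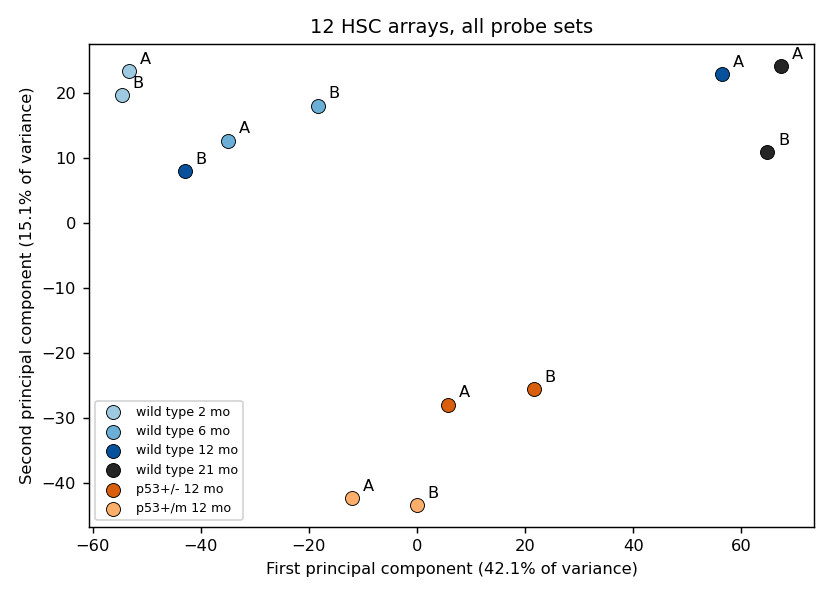
Principal components of the 12 HSC arrays over all probe sets; each point is 1 array, colored by genotype and age, with its replicate letter. Wild-type A and B at 12 mo lie far apart on the first axis (56.4 and -42.9) with both p53+/- arrays between them, and the p53+/- and p53+/m arrays lie below 0 on the second axis while all wild-type arrays lie above 0.

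A few stretches of promoter show the kinds of control element carried by the genes to which the results return: a p53 target (Cdkn1a), stress-response genes (Plk3, Btg2 and Atf3), a chemokine (Cxcl1) and cell cycle genes (Ccnb2 and Cks1b). They are RefSeq sequences of build GRCm38.p6, 80 bases each from the 250 bases before an annotated transcription start, 5′ to 3′ on the gene's strand, with the motif in capitals.
Cdkn1a, chr17:29090898-29090977, plus strand, p53 response element: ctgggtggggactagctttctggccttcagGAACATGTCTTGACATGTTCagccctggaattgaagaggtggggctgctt
Plk3, chr4:117134052-117134131, minus strand, cAMP response element: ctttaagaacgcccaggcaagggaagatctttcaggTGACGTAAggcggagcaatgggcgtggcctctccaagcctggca
Btg2, chr1:134079278-134079357, minus strand, cAMP response element: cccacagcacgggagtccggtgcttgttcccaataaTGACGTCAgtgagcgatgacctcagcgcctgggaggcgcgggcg
Atf3, chr1:191183334-191183413, minus strand, cAMP response element: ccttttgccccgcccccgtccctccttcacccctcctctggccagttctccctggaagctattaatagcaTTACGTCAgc
Cxcl1, chr5:90891139-90891218, plus strand, NF-kB motif: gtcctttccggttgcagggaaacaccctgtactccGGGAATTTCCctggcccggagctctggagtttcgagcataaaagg
Ccnb2, chr9:70421679-70421758, minus strand, CHR motif: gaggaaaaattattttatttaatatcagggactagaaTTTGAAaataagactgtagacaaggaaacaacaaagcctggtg
Cks1b, chr3:89418292-89418371, minus strand, CHR motif: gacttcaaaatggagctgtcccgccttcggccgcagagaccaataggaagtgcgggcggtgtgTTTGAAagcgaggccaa
The p53 response element, searched as the 20-base consensus with at most 1 differing letter, was found before the start of 25 of 27025 genes (0.0925%). In Cdkn1a it begins 51 bases before the upstream one of 2 annotated starts. Of the cAMP response elements shown, that of Btg2 is the full TGACGTCA. Those of Plk3 and Atf3 match the looser TGACGTNA, which leaves 1 base free. TGACGTNA, read on both strands, stood before 2.92% of genes, the NF-kB motif (GGG and TTTCC parted by any pair of bases, both strands) before 1.65% and the CHR motif TTTGAA, both strands, before 18.3%. These matches describe the letters in the window only.

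Against both wild-type arrays, p53+/- HSC had a small set of large differences (n = 2 arrays per group). A limma fit over the 12 HSC arrays called 18 probe sets higher and 19 lower (Benjamini-Hochberg adjusted p below 0.05 and at least 2-fold), which is 0.0796% and 0.084% of those tested. Among those with a symbol, the 4 largest rises were in the chemokine Cxcl1, the RNA exosome gene Exosc10, the p53 target kinase Plk3 and the nuclear receptor Nr4a2. The falls included the actin-binding peptide Tmsb10, the protease Ctse, the desaturase Scd2 and the homing receptor Cxcr4. On the 37 called probe sets, the median difference between the wild-type arrays was 0.191 log2 units and the largest 1.39. The median was 0.21 over all probe sets and 0.664 over those with a signal of at least 5 on 2 of the 12 arrays. A call needs a small spread within groups, so the selection itself favors probe sets on which the wild-type arrays are close. Fitted on the 4 arrays alone, the model called 0 probe sets in either direction, with 132 higher and 202 lower at an unadjusted p below 0.05 and 2-fold, against 263 and 410 in the fit over 12 arrays. The calls thus lean on the spread seen within the other groups. Removing wild-type A raised them to 579 higher and 473 lower and removing wild-type B to 100 and 230, and without p53+/- A or B they were 41 and 36 or 45 and 23. With 2 arrays a side, an exact permutation test cannot go below p = 0.333.

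**Figure D2:**
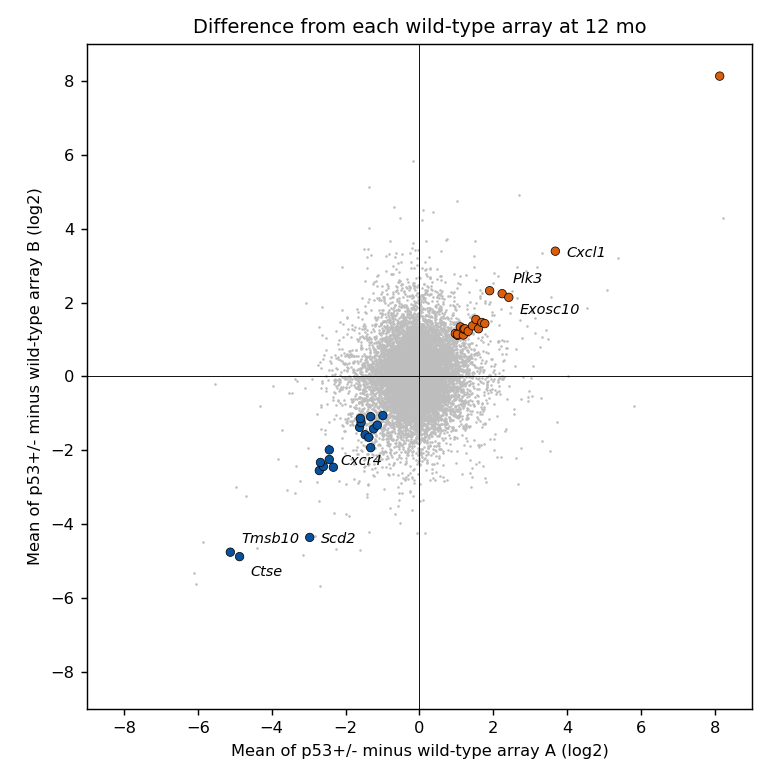
Mean of the p53+/- arrays minus wild-type array A (horizontal axis) and minus wild-type array B (vertical axis), in log2 units, for every probe set; orange points were called higher and blue points lower in p53+/- HSC. The called probe sets lie near the diagonal, where both wild-type arrays give about the same difference, which the call itself favors. The point at the upper right is a probe set with no gene symbol in the table, 8.13 log2 units higher from a very low wild-type signal.

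Cxcl1 encodes a chemokine that recruits neutrophils and is a classical NF-kB target. Its probe set read 2.91 and 3.20 on the wild-type arrays and 6.85 and 6.32 on the p53+/- arrays, a rise of 3.53 ± 0.33 log2 units (SE; limma adjusted p = 0.0219) from a low wild-type signal, so that its size is uncertain. All 8 wild-type HSC arrays lay between 2.88 and 3.26, so both p53+/- arrays were more than 3 log2 units above the wild-type range. The p53+/m arrays, at 4.52 and 5.55, lay between.

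Plk3, a Polo-like kinase induced by stress and by p53, read 5.34 on both wild-type arrays and 7.81 and 7.36 on the p53+/- arrays, a difference of 2.24 ± 0.20 (limma adjusted p = 0.0219). The highest wild-type HSC array of any age read 6.01. Slc19a2, a thiamine transporter and p53 target, rose by 1.60 ± 0.16 (limma adjusted p = 0.0228), from 6.46 and 6.81 to 8.12 and 8.35, and was again above all 8 wild-type HSC arrays, which ended at 6.95. In p53+/m HSC, Plk3 read 6.97 and 7.32 and Slc19a2 7.55 and 7.73, above the wild-type range in both.

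Cdkn1a, the cyclin-dependent kinase inhibitor p21, gave a split answer. The probe set 1421679_a_at read 8.32 and 8.31 in wild type and 9.87 and 9.84 in p53+/- HSC, 1.54 ± 0.20 higher (limma adjusted p = 0.0486). The call was lost without either p53+/- array. It was also lost with a filter on low values, with a replicate block and against an age trend of the wild-type arrays. The fits on 4 and on 6 arrays did not make it either. The brighter probe set 1424638_at read 9.18 and 10.60 in wild type against 11.34 and 10.59, so the groups overlapped, with a difference of 1.08 ± 0.48 (limma adjusted p = 0.651). Wild-type HSC of other ages reached 10.56 on the first probe set, above both p53+/- arrays.

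Nr4a2, an orphan nuclear receptor that is an immediate early gene, rose from 8.35 and 7.93 to 10.43 and 10.07 (2.11 ± 0.24, limma adjusted p = 0.039). Its brighter probe set differed by 0.63, with no overlap but an adjusted p of 0.473 from limma. Exosc10, a catalytic part of the RNA exosome, rose by 2.28 on one probe set, from 4.49 and 4.77 to 7.16 and 6.66; its brighter probe sets read 1.11 and 1.23 higher, with limma adjusted p of 0.585 and 0.711. Mafg, a small Maf partner of Nrf2 and of the erythroid and megakaryocyte factor NF-E2, rose by 1.40 to 9.98 and 9.87, and read 0.47 higher on its brighter probe set (limma adjusted p = 0.369). The tetraspanin Tspan4 rose by 1.26, the mitochondrial outer membrane protein Tspo by 1.16 (by 0.50 on each of 2 other probe sets, not called) and the pregnancy-specific glycoprotein Psg23 by 1.24, the last from a signal near background. Fgl2 rose by 1.44 on a dim probe set while its brighter one read 1.19 lower in p53+/- HSC, so its direction is not settled. The other named rises, in Zbtb2, Tmem80, Gmppb and Clptm1l, were of 1.07 to 1.22 log2 units, and 3 of the 18 higher probe sets had no single symbol.

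Cathepsin E (Ctse), an aspartic protease of the endosome, had the smallest adjusted p among the falls. Wild-type HSC read 11.04 and 11.05 at 12 mo and 11.01 to 11.33 at all ages, whereas p53+/- HSC read 6.55 and 5.80. The difference was -4.87 ± 0.22 log2 units (limma adjusted p = 0.00266), or 29.3-fold. HSC from p53+/m mice, at 10.41 and 10.48, lay just below that range. The call held in 8 of 10 other settings and was absent from the fits on 4 and on 6 arrays.

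Cxcr4, the receptor for the niche chemokine Cxcl12 that retains HSC in the marrow, read 9.67 and 9.48 in wild type and 7.02 and 7.45 in p53+/- HSC, a fall of 2.34 log2 units with an SE of 0.24 (limma adjusted p = 0.0239). The wild-type HSC arrays of all ages lay between 9.35 and 10.04. The p53+/m arrays were lower still, at 5.73 and 5.97. Foxo1, a forkhead factor that protects HSC from oxidative stress, read 9.22 and 8.77 against 7.60 and 7.65, a difference of -1.37 ± 0.13 (limma adjusted p = 0.0219); wild-type HSC of other ages went down to 7.60. The other 3 Foxo1 probe sets differed by -0.88, -0.24 and -0.06, and none passed the test. On the called probe set the p53+/m arrays read 7.93 and 7.8.

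Lipoprotein lipase (Lpl) fell by 2.22 log2 units, from 10.77 and 10.32 to 8.69 and 7.97. Wild-type HSC at 2 mo read 8.14 and 8.24, so p53+/- A lay within the wild-type range of all ages and p53+/- B just below it. N-acetylneuraminate pyruvate lyase (Npl) fell by 2.39, from 10.14 and 10.27 to 8.21 and 7.42, below all 8 wild-type HSC arrays. Marcks, a membrane-bound substrate of protein kinase C, fell by 2.52 to 3.72 and 3.96 on one probe set. Its brightest probe set differed by -0.64 and others by -0.35 and -0.25, none past the test. Arap3, a GTPase-activating protein, fell by 2.63 to 3.38 and 3.87. Slc9a3r1, a membrane scaffold, fell by 2.50 on one probe set, whereas its brightest differed by -1.30 (limma adjusted p = 0.618) and another by -0.20, with p53+/- HSC above wild-type B there. Ndufa5, a subunit of respiratory complex I, fell by 1.62, and its dimmer probe set differed by -0.42 (limma adjusted p = 0.748). Ndufa5 lost its call in 8 of 10 other settings. The desaturase Scd2 fell by 3.66 on one probe set but differed by 0.19 the other way on its brightest, at 12.50 and 12.59 against 12.39 and 13.09. Tmsb10 fell by 4.94 on one probe set, to the low signals of 2.53 and 2.33, so the size is uncertain, and read 2.35 lower on its brightest, where the adjusted p was 0.294 in limma. The tubulin-folding cofactor Tbca fell on its brightest probe set, from 12.11 and 12.29 to 10.97 and 10.98 (-1.23 ± 0.10), and read 1.46 lower on the next. The other falls, in 0610009B22Rik, Pik3r4, Gtf3c1, Tmem47 and Cox15, lay between -1.53 and -1.03. For Gtf3c1, wild-type HSC of other ages went down to 4.53, below the p53+/- arrays (4.75 and 4.73). For Tmem47 they went down to 4.56, also below the p53+/- arrays (4.76 and 4.81). Several of the called probe sets read about as low in p53+/m HSC. There Npl read 8.19 and 7.97, Scd2 2.66 and 2.43, Tmsb10 2.59 and 2.34, and Slc9a3r1 5.76 and 5.95. Ndufa5 read 9.34 and 9.22 and Tbca 11.3 and 11.1. Lpl (9.68 and 9.62), Marcks (5.61 and 6.0) and Arap3 (5.73 and 5.49) were nearer to wild type in p53+/m HSC.

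**Figure D3:**
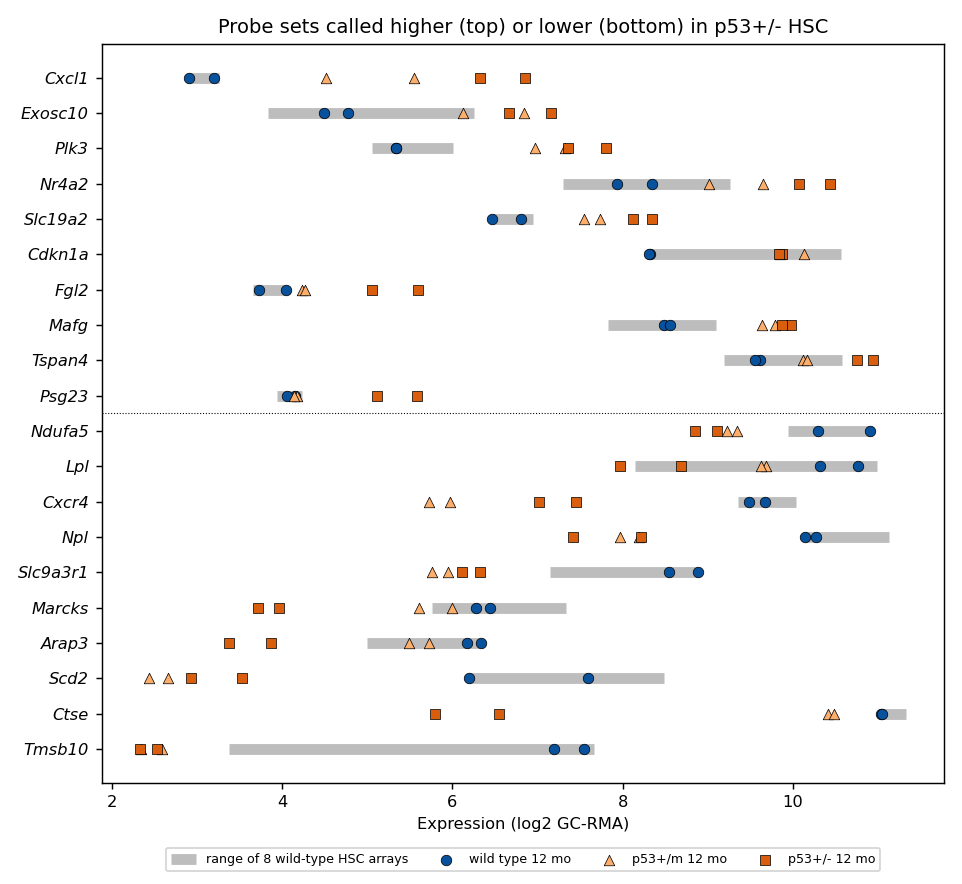
Expression (log2 GC-RMA) of the 10 largest named rises (top) and falls (bottom), with blue circles for wild type, orange squares for p53+/- and pale triangles for p53+/m at 12 mo, 2 arrays each; the gray bar spans the 8 wild-type HSC arrays of all ages. Cxcl1 and Ctse stand clear of the gray bar by 3.06 and 4.46 log2 units, whereas Cdkn1a falls within it.

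Because the 12-mo wild-type arrays differed so widely, the p53+/- arrays were also set against all 8 wild-type HSC arrays. Both p53+/- arrays were at least 2-fold above every wild-type HSC array for 14 probe sets (0.0619%) and at least 2-fold below every one for 24 (0.106%). Against the 12-mo wild-type arrays alone the counts were 64 (0.283%) and 121 (0.535%). After Cxcl1, the named genes with the widest gap above the wild-type range were the imprinted noncoding RNA Meg3 (8.68 and 9.05, with a wild-type range from 5.25 to 6.95), the glycosyltransferase Galnt11 (8.18 and 8.25 against at most 6.69), Plk3 and the cornified envelope protein Lor (8.40 and 8.09 against at most 6.83). Meg3 was as high in p53+/m HSC, at 8.66 and 8.99, and in p53+/- HSC its limma adjusted p was 0.198. After Ctse, the widest gaps below were those of Scd2, Npl, the ATP synthase subunit Atp5l (4.25 and 4.26 against at least 6.17) and Cxcr4. Atp5l was not called against the 12-mo wild-type arrays (limma adjusted p = 0.183), and neither were Galnt11 and Lor. Atf3, a stress-induced transcription factor with a match to TGACGTNA in its promoter, belonged to the higher group as well, at 11.03 and 10.54 against 6.87 to 9.43 in wild type.

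One called probe set with no gene symbol in the table, 1431213_a_at, read between 1.46 and 1.48 on all 8 wild-type HSC arrays, 9.41 and 9.80 on the p53+/- arrays and 8.54 and 6.54 on the p53+/m arrays (8.13 ± 0.55 for p53+/-, limma adjusted p = 0.0109). The wild-type signals are at the low end of the scale, so the size of the difference is uncertain.

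Called genes were also placed by their order along the chromosomes in the RefSeq annotation. Ctse, Cxcr4, Npl, Slc19a2 and Uap1 all lie on the chromosome that carries Ptprc, the CD45 gene whose CD45.1 allele marked the wild-type mice. That is 5 of the 34 called probe sets with a symbol, whereas 5.71% of measured genes are on that chromosome. Cxcr4 and Ctse are on one side of Ptprc, with 74 and 55 measured genes between, and Npl, Slc19a2 and Uap1 on the other, with 31, 79 and 104, out of 708 measured on the chromosome. Uap1 was called on one probe set; its brightest read 9.39 and 8.98 against 9.07 and 9.15 (-0.08). On the chromosome of the p53 gene lie 4 of the 34 (8.41% of measured genes), of which 0610009B22Rik, Slc9a3r1 and Mafg are 163, 544 and 640 measured genes away. The fourth, Polr2a, the large subunit of RNA polymerase II, is separated from the p53 gene by 8 measured genes. It read 9.99 and 10.27 in wild type, 8.77 and 8.47 in p53+/- and 8.97 and 8.80 in p53+/m HSC, and fell by 1.51 in p53+/- HSC (limma adjusted p = 0.0219). Younger wild-type HSC were near the p53+/- level, at 8.97 and 9.17 at 2 mo and 8.66 and 8.58 at 6 mo. The Polr2a call held in 6 of 10 other settings. Of the 40 measured genes nearest to the p53 gene, 20 a side, Polr2a was the one called, and their median difference was -0.01. Effects of p53 dose and of strain-derived sequence near these genes cannot be told apart in these arrays.

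Gene lists are described by the highest-signal probe set of each gene. Over all 12393 genes, 10 (0.0807%) were called higher and 14 (0.113%) lower, and the median difference was -0.02. Both p53+/- arrays lay above both wild-type arrays for 7.79% of genes and below them for 22.1%. That split depends on the scaling: after quantile normalization it was 14.8% above and 15.1% below. Among the 6076 genes with a mean signal of at least 5, it was 13.0% and 21.3%, or 15.6% and 17.2% after quantile normalization. These shares are the background for the counts that follow.

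The p53 target genes lay on both sides of wild type. Of 49 listed genes 45 were measured, and their median difference was -0.01 against wild-type A and 0.00 against B. Plk3 and Slc19a2 were called higher and no member was called lower; 6 members lay above both wild-type arrays and 6 below (13.3% each), or 7 and 3 after quantile normalization. Btg2, an antiproliferative p53 target that is also an immediate early gene, read 8.96 and 8.10 in wild type and 10.07 and 9.76 in p53+/- HSC (1.39 ± 0.31, limma adjusted p = 0.195). The p53 antagonist Mdm2 differed by 0.09 ± 0.09, with 8.46 and 8.33 against 8.37 and 8.60. The apoptosis genes Bbc3 (-0.16 ± 0.32) and Pmaip1 (-0.26 ± 0.30) and the stress gene Sesn1 (-0.38 ± 0.30) did not pass the test. Trp53inp1 read 12.29 and 12.01 against 12.40 and 12.75 (0.42 ± 0.32). For Ccng1, the brightest probe set read 10.34 and 10.48 against 9.82 and 10.06 (-0.46 ± 0.29), while 1450016_at lay below all 8 wild-type HSC arrays, at 5.41 and 5.35 against at least 6.77 (limma adjusted p = 0.177). Among 23 regulators and partners of p53, 2 lay above and 5 below; the checkpoint kinase Atm read 6.98 and 6.58 against 6.15 and 5.23, and Chek1 7.73 and 8.46 against 5.65 and 7.58, and neither was called.

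Cell cycle genes read lower in p53+/- HSC. Of 35 measured genes of the cell cycle and mitosis, 15 (42.9%) lay below both wild-type arrays and 0 above, with a median difference of -0.56, or -0.48 against wild-type A and -0.46 against B. The p53+/- arrays were less alike: the median signal of the list was 5.41 on p53+/- A and 5.94 on B, against 6.51 and 6.62 in wild type. After quantile normalization the count was 13 below and 2 above, and the median -0.49. None of the 35 passed the adjusted test in limma, and 5 were at least 2-fold lower at an unadjusted p below 0.05. The mitotic kinesin Kif23 read 7.33 and 7.92 against 6.35 and 5.96 (-1.47 ± 0.33). Racgap1, its partner in cytokinesis, read 7.41 and 6.64 against 5.93 and 5.18. The Cdk subunit Cks1b read 12.47 and 12.79 against 11.34 and 11.86, and the checkpoint kinase Bub1 6.14 and 7.38 against 4.73 and 5.54. Mki67, the proliferation antigen Ki-67, read 9.80 and 10.10 against 8.92 and 9.48, a difference of -0.76 ± 0.32. For Mki67, wild-type HSC of other ages went down to 9.34, and p53+/m HSC read 9.99 and 9.11. On another Cks1b probe set, p53+/- HSC read 4.99 and 5.01 and p53+/m HSC 5.62 and 5.68. All 8 wild-type HSC arrays were at 6.09 or more there. Of 29 list members with a promoter window, 10 held the CHR motif shown above for Ccnb2 and Cks1b and 21 held CCAAT, which stands before 37.5% of all genes. In pooled cells, fewer cells of a type (cycling cells here, myeloid or platelet-primed cells below) and less RNA per cell cannot be told apart.

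Of 34 DNA replication genes, 6 lay below and 2 above, with a median of -0.06. The p53+/- arrays lay on either side of wild type there, with list medians of 7.17 on A and 8.09 on B against 7.80 and 7.98. Of 24 DNA damage signaling genes 8 (33.3%) lay below and 1 above; the histone variant H2ax read 7.36 and 6.81 against 5.37 and 5.68 (-1.56 ± 0.27, limma adjusted p = 0.116). The median of that list was -0.45 against wild-type A and -0.15 against B. Of 61 DNA repair genes 13 were below and 4 above (median -0.08). Cyclin D1 (Ccnd1) differed by 0.49 ± 0.54 on its brightest probe set. Another Ccnd1 probe set went the other way, at 8.65 and 8.23 against 7.47 and 7.42 (-1.0, limma adjusted p = 0.709). Of 18 Cdk inhibitors, D-type cyclins and Rb family genes 2 lay below and 0 above. Among 35 genes of the Bcl-2 family and apoptosis, 3 were above and 5 below.

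**Figure D4:**
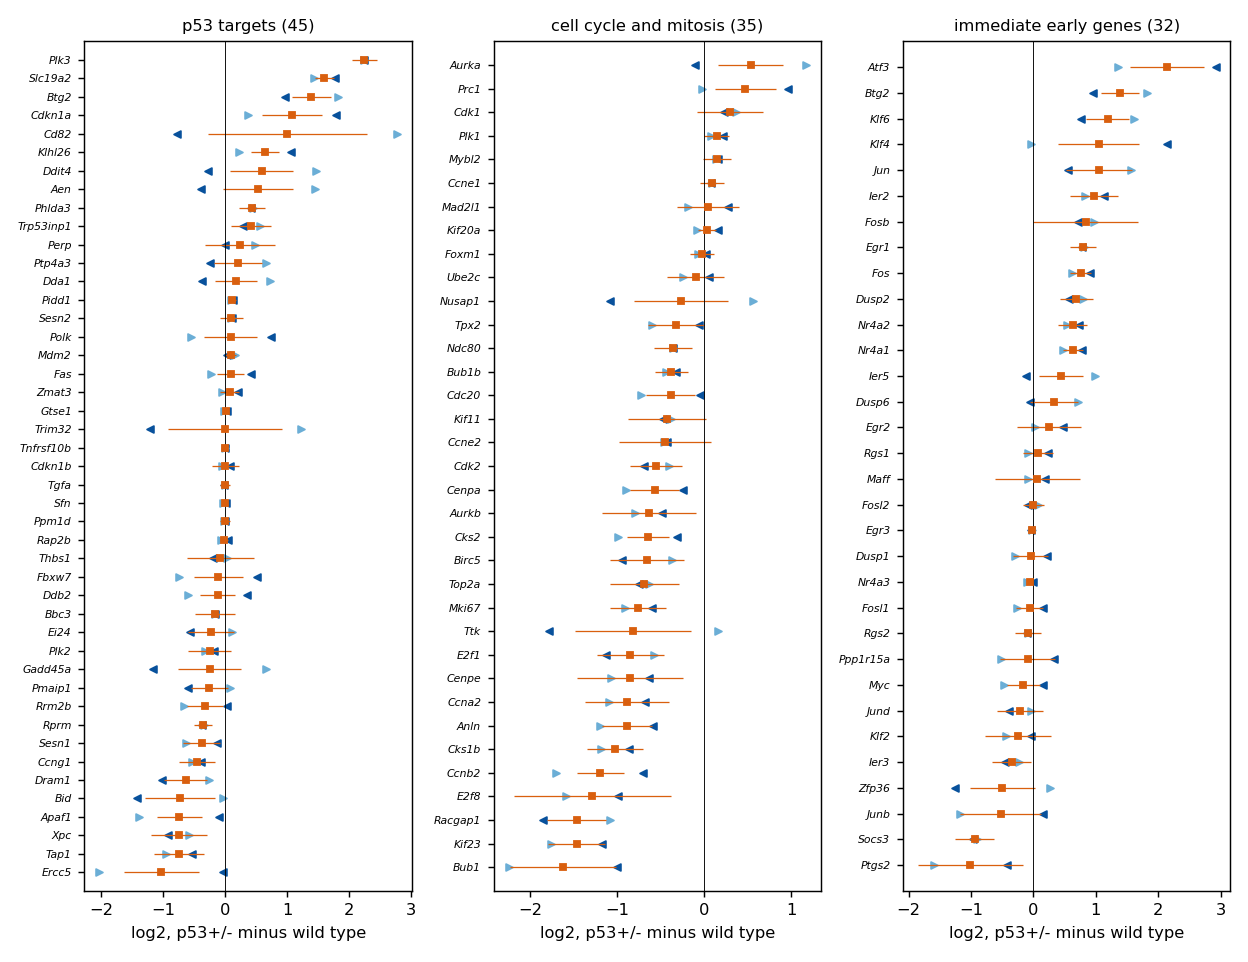
Log2 difference of p53+/- from wild-type HSC at 12 mo for every measured member of 3 gene lists; orange squares are the difference from the mean of both wild-type arrays with its SE, and blue triangles the differences from wild-type array A (pointing left) and B (pointing right). p53 targets spread to both sides of 0, cell cycle genes lie mostly below 0 and many immediate early genes lie above 0.

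Immediate early genes, which respond within minutes to growth factors and stress, had more members above than below wild type. Of 32 measured, 10 (31.2%) lay above both wild-type arrays and 6 below, and the median difference was 0.07. The 10 higher members included Fos (12.94 and 13.23 against 13.60 and 14.09), Egr1 (11.56 and 11.54 against 12.19 and 12.50), Nr4a1 (11.66 and 11.96 against 12.67 and 12.21) and Klf6 (11.68 and 10.83 against 12.28 and 12.59). None passed the adjusted test on the probe set used. In p53+/m HSC, Atf3 was at 10.35 and 10.36 and Btg2 at 9.70 and 10.10. Of the 26 list members with a promoter window, 5 held TGACGTNA.

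Genes of protein turnover and of mitochondria differed mainly from wild-type B. Protein folding genes had 10 of 48 above and 1 below, with a median of 0.35 that was 0.03 against wild-type A and 0.74 against B. Of 33 proteasome genes, 12 (36.4%) lay above and 4 below, with medians of 0.03 against A and 0.41 against B. Psma7, a core subunit, read 8.75 and 8.70 against 9.38 and 9.33, with no call. Oxidative phosphorylation genes had 17 of 57 (29.8%) below and 3 above, with medians of -0.12 against A and -0.83 against B; Ndufa5 was called, and another subunit of complex I, Ndufb3, read 8.86 and 8.67 against 6.97 and 7.29 (-1.64 ± 0.23, limma adjusted p = 0.0771). Ribosomal protein genes split into 9 above and 12 below of 36, Rpl8 among the former (13.14 and 13.19 against 13.88 and 13.76) and Rps26 among the latter (13.61 on both wild-type arrays against 12.76 and 12.37). Ribosomal RNA and 3′ bias controls also differed between wild-type A and B, and their part was not tested.

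**Figure D5:**
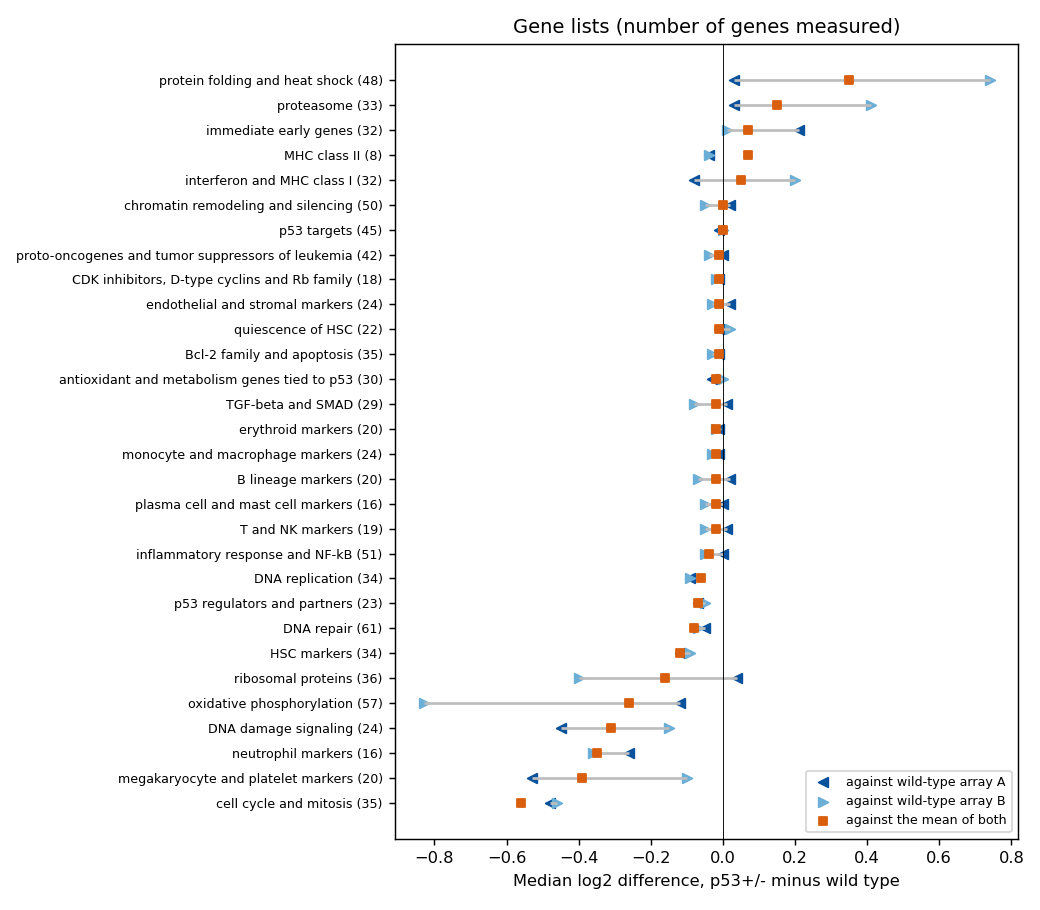
Median log2 difference of p53+/- from wild-type HSC for 30 gene lists, with the number of genes measured in parentheses; orange squares are against the mean of both wild-type arrays, and blue triangles against wild-type array A or B alone. The cell cycle list is the lowest (-0.56) and its triangles lie close together, whereas those of protein folding and oxidative phosphorylation are far apart.

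As a list, markers of HSC had like median signals on the 4 arrays, while single members differed. None was called, and 2 were at least 2-fold lower in p53+/- HSC at an unadjusted p below 0.05 in limma. The median signal of 34 measured HSC markers was 8.65 and 8.55 in wild type and 8.58 and 8.55 in p53+/- HSC; 7 members lay below and 2 above. Procr, the endothelial protein C receptor found on HSC, read 13.64 and 12.85 against 13.43 and 13.59, and the stem cell factor receptor Kit 10.24 and 8.59 against 8.88 and 8.76. Gata2, a transcription factor of HSC, read 10.01 and 10.13 against 9.23 on both p53+/- arrays (-0.84 ± 0.25), with a limma adjusted p of 0.345. Most lymphoid markers were low on all 4 arrays, with list medians from 2.89 to 3.16 for 20 B lineage genes and from 2.53 to 2.61 for 19 T and NK genes. Of the B lineage genes 4 had a mean of at least 5 over the HSC arrays, among them Cd72 (8.16 and 7.49 against 7.86 and 7.96) and Ighm (8.75 and 8.99 against 7.27 and 1.43).

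No marker of mature myeloid cells or platelets was called. Of 16 measured neutrophil markers 9 (56.2%) lay below and 1 above, and the list's median signal was 4.14 and 4.61 in wild type against 3.68 and 3.17. The calprotectin subunit S100a8 read 6.82 and 9.81 against 4.12 and 4.13, and the granule protein Ngp 8.88 and 6.90 against 4.74 and 3.07; in whole bone marrow they read 15.54 and 15.59, and 14.79 and 14.71. Wild-type HSC of other ages spanned 4.35 to 10.02 for S100a8, and neither gene was called (limma adjusted p = 0.276 and 0.279). Of 20 megakaryocyte and platelet markers, 10 (50.0%) lay below and 0 above, and the median difference was -0.53 against wild-type A and -0.10 against B. Platelet factor 4 (Pf4) read 8.80 and 9.19 against 7.81 and 6.11. The integrin Itga2b, also on the list of HSC markers, read 8.53 and 7.33 against 6.00 and 6.20. Among 24 monocyte and macrophage markers, 9 were below and 1 above with a median of -0.02, Cd14 being the higher one (9.07 and 8.42 against 10.48 and 9.35). After quantile normalization the counts below were 10 for neutrophil, 6 for megakaryocyte and 3 for monocyte markers, the last under the 15.1% of all genes.

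Inflammation genes were mixed apart from Cxcl1. Of 51 measured, 5 were above and 14 (27.5%) below. The adhesion receptor P-selectin (Selp) read 9.37 and 10.47 against 7.89 and 8.86 (-1.54 ± 0.53, limma adjusted p = 0.45). A second Selp probe set differed less, at 9.15 and 10.12 against 8.89 and 8.93 (-0.73, limma adjusted p = 0.951). The endotoxin receptor Tlr4 read 6.88 and 5.73 against 4.89 and 4.25. Ptgs2, the prostaglandin synthase Cox-2, read 8.52 and 9.69 against 8.76 and 7.44, overlapping. In 9 of the 36 list members with a promoter window the NF-kB motif was found, Cxcl1 among them. Clusterin (Clu) differed by -0.25 ± 0.51, necdin (Ndn), a growth suppressor, by 0.53 ± 0.40, the quiescence factor Gfi1 by -0.18 ± 0.47 and the deacetylase Sirt7 by -0.07 ± 0.29, none of them past the test.

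Where p53+/- HSC stood between young and old was read from 1083 probe sets that rose and 899 that fell from 2 to 21 mo, chosen on the 2- and 21-mo arrays alone. On a scale from 0% at 2 mo to 100% at 21 mo, the median position was 85.9% on wild-type A and 13.3% on wild-type B. The p53+/- arrays stood at 48.5% and 64.5%, so both fell between the 12-mo wild-type arrays, whose mean was at 50.1%. The positions were 43.0% and 58.4% on the rising probe sets and 54.5% and 73.0% on the falling ones. The p53+/m arrays read 39.4% and 48.2%. Of the 3778 probe sets where the wild-type arrays differed at least 2-fold, both p53+/- arrays lay between them for 2101 (55.6%). With wild-type arrays this far apart, no difference in position between p53+/- and wild-type HSC was detectable. The 18S rRNA control also differed between the arrays that define the scale, at 10.9 on both 2-mo arrays and 4.84 and 5.44 at 21 mo. Age and preparation cannot be told apart on this scale, and the part of the control was not tested.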

How the data were processed

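HSC RNA from 12-mo-old p53+/- and wild-type mice was measured on MOE430A arrays, 2 pools per group. The authors deposited 1 table of log2 expression values for 14 arrays; their methods name MAS 5.0 and GC-RMA (GCRMA in the submitters' processing notes, version not given in the sources used here). No scanner files were used here. After removal of 64 control probe sets, 22626 remained; 20380 had 1 symbol in the platform annotation, 691 several and 1555 none, giving 12393 genes.

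Group means were fitted over the 12 HSC arrays with limma 3.58.1 in R 4.3.3 (lmFit, eBayes), the contrast being p53+/- minus wild type at 12 mo. Calls needed a Benjamini-Hochberg adjusted p below 0.05 over all probe sets and 2-fold. The study's methods state no test for this pair. Each gene was read on the probe set whose mean over the 8 wild-type HSC arrays was highest. Named genes were the 10 largest rises and falls among calls that do not overlap, the 5 widest gaps on either side of all 8 wild-type HSC arrays, up to 4 called members of each list, and a set of p53 and aging genes; other list members are examples named after their values were seen. Members and 32 gene lists were chosen with earlier results of these data known. Bax, which the rule also names, was not analysed here. Replicate letters did not pair the arrays. On data simulated for this comparison over 22626 probe sets, 19 of 67 changes of 1 log2 unit, 51 of 67 of 2 units and 62 of 66 of 4 units were called, with 1 false call. The simulation gave all groups the same spread and drew each probe set independently. The real 12-mo wild-type arrays differ more widely than the other pairs, so these rates may not hold for them. The number of arrays limits the precision; p-values measure the spread between pools of mice. Motifs were searched in RefSeq promoter windows (GRCm38.p6). Alternatives were other sets of arrays, quantile normalization, a filter on low values, a replicate block, an age trend as reference, no fold threshold and leaving out each array.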

Additional observations from a re-analysis of the deposited data

How the results depend on the processing

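The called counts of 18 higher and 19 lower probe sets became 17 and 16 after quantile normalization, 10 and 15 with a filter on low values (a signal of 5 on 2 arrays), 10 and 8 against a quadratic age trend of the wild-type arrays, and 28 and 27 with no fold threshold. They were 0 and 0 on the 4 arrays alone (132 and 202 at an unadjusted p below 0.05 and 2-fold) and 0 and 0 on the 6 arrays of 12 mo (184 and 296) in limma. With a replicate block the counts were 4 and 13; the letters share only a number, since correlations of the A minus B differences between groups ran from -0.307 to 0.163. The crossed pairing, chosen after seeing the data because the letters of p53+/- and wild-type arrays correlated at -0.191, gave 5 and 10. Without 1 array at a time the counts ran from 41 to 579 higher and from 23 to 473 lower. The counts at least 2-fold beyond both 12-mo wild-type arrays, 64 and 121, were 1862 and 4919 for any gap, 85 and 102 after quantile normalization, and ran from 223 to 926 and from 305 to 890 without 1 array. Beyond all 8 wild-type HSC arrays, 14 and 24 became 625 and 1115 for any gap and ran from 14 to 76 and from 29 to 124 without 1 array. The median age position of 55.9% for the mean of the p53+/- arrays was 54.2% and 56.0% under its alternatives. The 37 called probe sets kept their call in 220 of 407 recomputed tests. Where these counts moved, the cause was not tested.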

Other observations

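Among the lists not described above, 32 interferon and MHC class I genes had 5 members above and 5 below both wild-type arrays. Ifi35 read 7.13 and 7.71 in wild type against 8.61 and 8.25 in p53+/- HSC, and the interferon regulatory factor Irf2 read 7.63 and 8.32 against 7.06 and 6.55; neither passed the adjusted limma test. Of 50 genes of chromatin remodeling and silencing, 5 lay above and 9 below, and of 29 TGF-beta and SMAD genes 1 above and 7 below, with medians of 0.00 and -0.02; after quantile normalization the counts were 7 and 8, and 2 and 1. Of 42 proto-oncogenes and tumor suppressors of leukemia, 3 lay above and 10 below, and of 30 antioxidant and metabolism genes tied to p53, 3 above and 5 below. The 22 quiescence genes had 3 above and 4 below, Foxo1 being the one called. Erythroid markers had 8 of 20 below and 1 above (6 and 2 after quantile normalization), endothelial and stromal markers 3 of 24 below and 2 above (0 and 8 after quantile normalization), plasma cell and mast cell markers 5 of 16 below and 1 above (6 and 4), and MHC class II genes 1 of 8 below and 0 above. The B lineage list had 6 of 20 below and 0 above, or 2 and 0 after quantile normalization; the immunoglobulin heavy chain gene Ighm ran from 1.46 to 12.03 across the wild-type HSC arrays. The T and NK list had 4 of 19 below and 0 above, or 6 and 3 after quantile normalization.

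Of 21 measured genes that the study lists as rising with age in wild-type HSC, 5 lay above both 12-mo wild-type arrays and 3 below, and of 15 listed as falling, 1 above and 0 below. The study chose both lists on the wild-type arrays used here, so these counts are not independent of them.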
